A study of Homo sapiens with 17 samples.

Results

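The genes described here encode insulin-like growth factor (IGF) binding proteins and the secreted proteins that act on them. They are IGFBP2, IGFBP3, IGFBP4, IGFBP5, IGFBP6, IGFBP7, the receptor gene IGF1R, the protease gene PAPPA (pappalysin) and the stanniocalcin genes STC1 and STC2. They were taken by gene symbol and are 10 of the 41040 named genes in the count files. All 10 passed the filter on low counts that left 16891 genes for testing. RNA-seq libraries were made from IMR-90 cells, a fibroblast line from human fetal lung that comes from 1 donor. The week 0 group was untreated and has 5 libraries. The week 1 and week 4 groups have 6 libraries each, from cells given 20 µM etoposide, a topoisomerase II inhibitor that breaks DNA, for 48 h. The drug was then removed and the cells were harvested on day 7 or day 28. Untreated cells were sampled at week 0 alone, so etoposide and time in culture cannot be told apart.

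IGF1 and IGF2 are growth factors that signal through the receptor tyrosine kinase IGF1R, and the binding proteins hold them in the space around cells, which either blocks or stores them. Pappalysin is a secreted metalloprotease that cuts IGFBP4 and IGFBP5 and so frees bound IGF, and STC1 and STC2 are glycoproteins that bind pappalysin and inhibit it. Several binding proteins, IGFBP3, IGFBP4, IGFBP5 and IGFBP7 among them, are known from the secretions of senescent fibroblasts, cells that have stopped dividing for good after damage such as that from etoposide.

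Library totals were 80335633 to 95976296 counts at week 0, 77162364 to 94249119 at week 1 and 80343833 to 102815295 at week 4. The 10 fibroblast markers were present in every library, and their summed level was 31363 to 36868 CPM (counts in every 1000000 counts of the library) at week 0, 40672 to 42881 at week 1 and 52830 to 56048 at week 4. COL1A1 and COL1A2 made up most of that sum, and the 10 markers did not all move one way. At week 1, 5 were higher and 5 lower than at week 0 (COL3A1, PDGFRA, PDGFRB, DCN and TCF21), and at week 4, 7 were higher and 2 lower (PDGFRA and TCF21). Of the markers of other cell types, all 6 for leukocytes, EPCAM, CDH1 and SFTPC for epithelium, CDH5 and CLDN5 for endothelium and MYH11 for smooth muscle were under 1 CPM in every library. The 8 epithelial markers summed to 74.0 to 81.9 CPM at week 0, 245 to 285 CPM at week 1 and 209 to 228 CPM at week 4. Of the 7 that could be tested, 5 were higher and 1 lower at week 1, and 5 higher and 0 lower at week 4. KRT8, KRT18 and KRT19 were 3.02-fold, 4.19-fold and 14.3-fold higher at week 1, while CLDN4 was 1.42-fold lower. The part of the epithelial markers in the results was not tested. The 6 endothelial markers summed to 83.9 to 103.4 CPM at week 0, 58.3 to 62.2 at week 1 and 52.1 to 76.6 at week 4. Of the 4 that could be tested, 2 were higher and 2 lower at each time. The 7 smooth muscle and pericyte markers summed to 1397 to 1585, 1206 to 1304 and 1078 to 1208 CPM. Of these 7, 4 were higher and 2 lower at week 1, and 4 higher and 1 lower at week 4. RGS5 was 6.19-fold higher at week 1, and MCAM was 2.57-fold lower. The shares over all tested genes were 32.9% higher and 34.0% lower at week 1, and 33.9% and 33.7% at week 4. The 6 proliferation markers summed to 1685 to 1877 CPM at week 0, 183 to 202 CPM at week 1 and 198 to 263 CPM at week 4. In week 0 replicates 1 and 4, ribosomal protein genes took 6.38% and 5.62% of counts against 3.48% to 4.20% in the other week 0 libraries. The longest of 3 equal classes of genes by length were lower in those 2 libraries than in the other 3, with a median difference of -0.13 on the log2 scale. The difference was -0.43 for PAPPA, -0.31 for IGF1R, -0.27 for IGFBP5 and 0.24 for IGFBP7.

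At week 1, 9 of the 10 genes were higher than at week 0 and 1, IGF1R, was lower. Of all tested genes 32.9% were higher and 34.0% lower, by edgeR's quasi-likelihood test at an adjusted p under 0.05. At week 4 all 10 were higher than at week 0, where 33.9% of all tested genes were higher and 33.7% lower. More than 2-fold rises were called for 8 of the 10 genes at week 1, against 11.6% of tested genes, and for 5 at week 4, against 12.1%. The median log2 fold change of the 10 genes was 1.24 at week 1 and 1.11 at week 4, while the median over all tested genes was -0.02 and 0.00. At each time 9 of the 10 were higher with no overlap between the groups' libraries, against 24.8% of tested genes at week 1 and 25.4% at week 4. The 2 comparisons share the week 0 libraries. Levels are given as CPM of library sizes scaled by the trimmed mean of M-values unless a sentence says otherwise. Without that scaling the week 4 and week 0 libraries of IGF1R overlapped. The RNA comes from whole cultures, so fewer cells of a kind and less RNA per cell cannot be told apart. The labels do not say that replicates were separate cultures, and p-values then measure the spread between libraries.

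**Figure D1:**
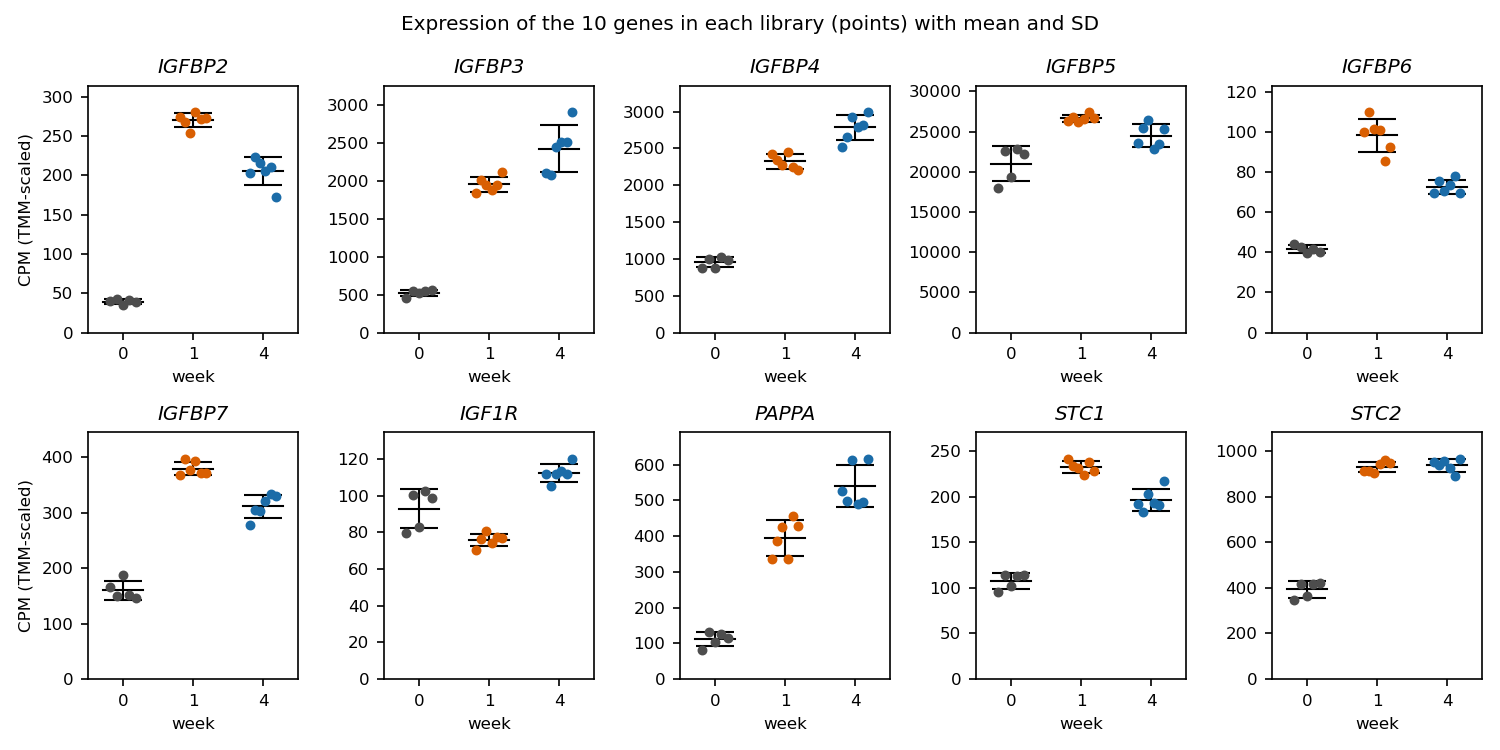
Level of each of the 10 genes in every library, in CPM on an axis from 0, against the week of harvest. Points are libraries, and the long and short bars are the group mean and 1 SD to each side. IGFBP2, IGFBP3, IGFBP4, IGFBP6, IGFBP7, PAPPA, STC1 and STC2 lay above every week 0 library at both later times.

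IGFBP2, which binds IGF2 more tightly than IGF1, had the largest rise of the 10 genes. Its level was 40.2, 42.6, 35.1, 41.1 and 38.5 CPM in week 0 replicates 1, 3, 4, 5 and 6. At week 1 the lowest, median and highest libraries were at 254, 272 and 280 CPM. At week 4 they were at 172, 208 and 223 CPM. Every treated library was above every untreated one, and every week 4 library was below every week 1 library. The log2 fold change was 2.77 ± 0.06 (SE) at week 1, or 6.83-fold (adjusted p = 9.1e-20), and 2.38 ± 0.06 at week 4, or 5.19-fold (adjusted p = 1e-18). Between week 1 and week 4 IGFBP2 fell by 0.40 on the log2 scale (adjusted p = 5.9e-06).

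IGFBP3, the main carrier of IGF in blood, went on rising after week 1. Its level was 460, 545, 514, 549 and 554 CPM in week 0 replicates 1, 3, 4, 5 and 6. The lowest, median and highest libraries were 1836.5, 1941 and 2110 CPM at week 1 and 2070, 2472 and 2897 CPM at week 4. The treated libraries did not overlap the untreated ones, while the week 1 and week 4 libraries overlapped each other. The log2 fold change was 1.89 ± 0.08 (SE) at week 1, or 3.72-fold (adjusted p = 1e-15), and 2.21 ± 0.08 at week 4, or 4.61-fold (adjusted p = 1.1e-16). The change from week 1 to week 4 was 0.31 (adjusted p = 9e-04).

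IGFBP4, a binding protein that inhibits IGF and a substrate of pappalysin, was the second most abundant of the binding protein genes per unit length at all 3 times. Its level was 953 ± 69 CPM (SD, n = 5) at week 0, 2324 ± 98 CPM (n = 6) at week 1 and 2785 ± 171 CPM (n = 6) at week 4. The 3 groups did not overlap. It was 2.44-fold higher at week 1 (adjusted p = 3.2e-15) and 2.92-fold higher at week 4 (adjusted p = 1.8e-16), with a further log2 change of 0.26 between week 1 and week 4 (adjusted p = 0.00026).

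IGFBP5, also a pappalysin substrate, was already among the most abundant RNAs of the untreated cells and changed least in fold among the binding proteins. It took 2.29% ± 0.23 (SD, n = 5) of all counts at week 0, 2.60% ± 0.03 (n = 6) at week 1 and 2.34% ± 0.14 (n = 6) at week 4, and ranked 2, 1 and 3 among all named genes per unit length. Its level was 18037, 22565, 19370.2, 22786 and 22221 CPM in week 0 replicates 1, 3, 4, 5 and 6. The lowest, median and highest libraries were 26231, 26590 and 27375 CPM at week 1 and 22766, 24416 and 26486 CPM at week 4. All week 1 libraries were above the untreated ones, and the lowest of week 4 lay just under the highest of week 0. The log2 fold change was 0.34 ± 0.06 (SE) at week 1 (adjusted p = 2e-05) and 0.22 ± 0.06 at week 4 (adjusted p = 0.0019). Without week 0 replicates 1 and 4, the 2 lowest libraries, these values were 0.24 and 0.12 (adjusted p = 1.5e-05 and 0.013). The difference of -0.12 ± 0.06 between week 4 and week 1 did not pass the test (adjusted p = 0.088), but passed it without those 2 libraries (adjusted p = 0.0036) and in a fit of the week 1 and week 4 libraries alone (adjusted p = 0.003).

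IGFBP6, which prefers IGF2, and IGFBP7, a related protein that binds IGF weakly, rose at week 1 and were lower again at week 4 while still above week 0. IGFBP6 was at 41.7 ± 1.8 CPM (SD, n = 5) at week 0, 98.3 ± 8.2 CPM (n = 6) at week 1 and 72.7 ± 3.5 CPM (n = 6) at week 4. IGFBP7 was at 160.3 ± 17.2, 379.7 ± 12.3 and 311.8 ± 20.6 CPM at the same times. For both genes none of the 3 groups overlapped. IGFBP6 was 2.36-fold higher at week 1 (adjusted p = 9.4e-15) and 1.75-fold higher at week 4 (adjusted p = 2e-11). IGFBP7 was 2.37-fold higher at week 1 (adjusted p = 4.2e-14) and 1.95-fold higher at week 4 (adjusted p = 4.5e-12). From week 1 to week 4 IGFBP6 fell by 0.44 and IGFBP7 fell by 0.28 on the log2 scale (adjusted p = 7.1e-07 and 0.00035).

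IGF1R, the receptor for IGF1 and IGF2, was lower at week 1 and higher at week 4 than at week 0. Its level was 79.8, 100.3, 82.8, 102.7 and 99.0 CPM in week 0 replicates 1, 3, 4, 5 and 6. The lowest, median and highest libraries were 70.4, 76.6 and 80.5 CPM at week 1 and 105, 112 and 120.0 CPM at week 4. The highest week 1 library lay just above the lowest week 0 library, and every week 4 library was above all others in scaled CPM. As a percent of all counts, without that scaling, IGF1R ran from 0.00882 to 0.0112 at week 0. At week 4 the range was 0.0100 to 0.0117, so the libraries of those times overlapped in that unit. The log2 fold change was -0.29 ± 0.06 (SE) at week 1 (adjusted p = 2e-04), 0.27 ± 0.06 at week 4 (adjusted p = 0.00041) and 0.57 ± 0.06 from week 1 to week 4 (adjusted p = 7.8e-08). Without week 0 replicates 1 and 4 the first 2 values were -0.41 and 0.15 (adjusted p = 6.8e-09 and 0.0026). Among the files that lack a gene length column, week 0 replicates 1 and 4 included, the week 1 value was -0.19 (adjusted p = 0.021). Among the files that hold one it was -0.45 (adjusted p = 7.4e-06).

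PAPPA, the gene of the protease that cuts IGFBP4 and IGFBP5, rose at week 1 and again by week 4. Its level was 81.9, 130.4, 102.5, 127 and 114 CPM in week 0 replicates 1, 3, 4, 5 and 6. The lowest, median and highest libraries were 335, 405 and 457 CPM at week 1 and 491, 513 and 616 CPM at week 4. The 3 groups did not overlap, although week 0 replicate 1 was well under the other untreated libraries. PAPPA was 3.55-fold higher at week 1 (log2 1.83 ± 0.11, SE, adjusted p = 1.5e-12) and 4.86-fold higher at week 4 (log2 2.28 ± 0.11, adjusted p = 4.7e-14). Without week 0 replicates 1 and 4 the log2 values were 1.67 and 2.12 (adjusted p = 3.6e-13 and 7.6e-15). The week 1 value was 1.96 among the files that lack a gene length column and 1.59 among those that hold one. The change from week 1 to week 4 was 0.46 on the log2 scale (adjusted p = 0.00086).

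The inhibitor genes STC1 and STC2 were both higher at week 1 and at week 4 than at week 0. STC2 was at 346, 418, 363, 418 and 423 CPM in week 0 replicates 1, 3, 4, 5 and 6. Its lowest, median and highest libraries were 905, 927 and 960 CPM at week 1 and 889, 943 and 965 CPM at week 4. The treated libraries lay above all untreated ones and overlapped each other between the 2 times. STC2 was 2.36-fold higher at week 1 (adjusted p = 2.5e-15) and 2.38-fold higher at week 4 (adjusted p = 2.6e-15), and its log2 difference between those times was 0.01 ± 0.05 (adjusted p = 0.89). STC1 was at 108 ± 8.6 CPM (SD, n = 5) at week 0, 233 ± 6.6 CPM (n = 6) at week 1 and 197 ± 11.9 CPM (n = 6) at week 4, with no overlap between groups. It was 2.16-fold higher at week 1 (adjusted p = 2.5e-14) and 1.83-fold higher at week 4 (adjusted p = 2.2e-12), and fell by 0.24 on the log2 scale from week 1 to week 4 (adjusted p = 0.00042).

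Between week 1 and week 4, 4 of the 10 genes rose, 4 fell and 2 did not pass the test, where 21.8% of tested genes rose and 18.6% fell. The risers were IGFBP3, IGFBP4, IGF1R and PAPPA. IGFBP2, IGFBP6, IGFBP7 and STC1 fell, and IGFBP5 and STC2 were not called. For 7 of the 10 the libraries of the 2 times did not overlap, against 30.2% of tested genes. The median log2 change of the 10 genes was -0.06, and it was 0.01 over all tested genes.

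**Figure D2:**
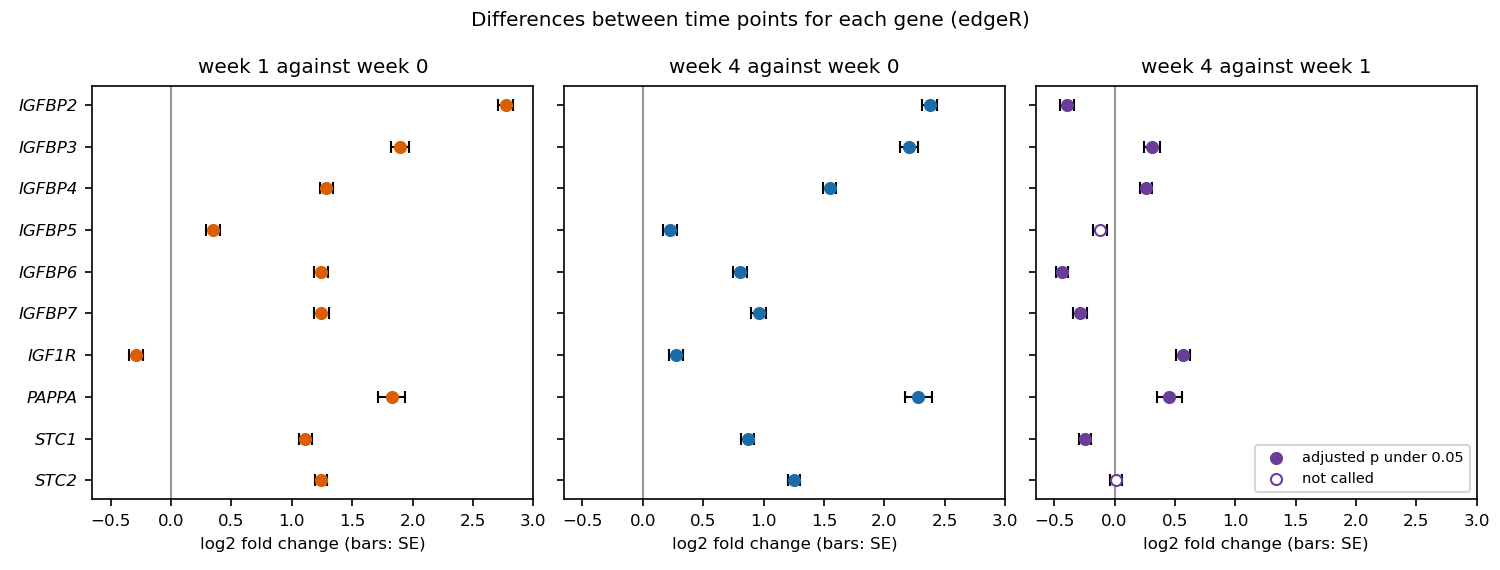
Log2 fold change of the 10 genes in the 3 comparisons, 1 panel each, with bars showing the standard error of the edgeR fit. Filled points passed the test and open ones (IGFBP5 and STC2, week 4 against week 1) did not. IGF1R lies on opposite sides of 0, at -0.29 at week 1 and 0.27 at week 4, and IGFBP2 lies furthest right of the 10 against week 0, at 2.77 and 2.38.

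Levels of different genes were set side by side per unit length, as TPM (counts over gene length, scaled to a total of 1000000 in every library), using the gene lengths in 4 of the count files. At week 0 the order of mean TPM was IGFBP5 at 16563, IGFBP4 at 2202, IGFBP3 at 585, IGFBP7 at 420, STC2 at 396, IGFBP6 at 157, STC1 at 133, PAPPA at 49.0, IGFBP2 at 42.4 and IGF1R at 34.0. The ranges of neighbours overlapped for IGFBP7 and STC2, for IGFBP6 and STC1, for PAPPA and IGFBP2 and for IGFBP2 and IGF1R. Other neighbours in that order did not overlap. At week 1 the TPM order was the same down to IGFBP6 at 350, followed by IGFBP2 at 273 and STC1 at 270, whose ranges overlapped, then PAPPA at 163 and IGF1R at 26.1. At week 4 STC2 stood at 908 TPM above IGFBP7 at 793. IGFBP2 stood at 212, PAPPA at 229, STC1 at 233 and IGFBP6 at 265 TPM, and the ranges of each of these neighbours overlapped. IGF1R stayed last at 39.5 TPM. IGFBP2 moved from rank 4054 among all named genes at week 0 to rank 580 at week 1, and PAPPA from 3592 at week 0 to 662 at week 4.

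The summed level of the 6 binding protein genes was 19970 ± 2936 TPM (SD, n = 5) at week 0, 28425 ± 370 TPM (n = 6) at week 1 and 28653 ± 1752 TPM (n = 6) at week 4. IGFBP5 made up 82.8% ± 0.84 of that sum at week 0, 69.5% ± 0.68 at week 1 and 64.9% ± 1.84 at week 4, and the 3 groups did not overlap. The other 5 genes together went from 3406 ± 351 TPM at week 0 to 8667 ± 162 TPM at week 1 and 10072 ± 878 TPM at week 4. In shares, IGFBP4 stood at 11.1%, 17.8% and 21.6%, and IGFBP3 at 2.94%, 7.20% and 9.06%. IGFBP2 stood at 0.214%, 0.960% and 0.743%. The summed level was 16247 and 17366 TPM in week 0 replicates 1 and 4, against 21504 to 22422 TPM in the other week 0 libraries. By library total with no gene length, the mean sum was 24768, 30861 and 28900 CPM at weeks 0, 1 and 4. In that unit it was lower at week 4 than at week 1. These sums and shares are descriptions and were not tested.

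**Figure D3:**
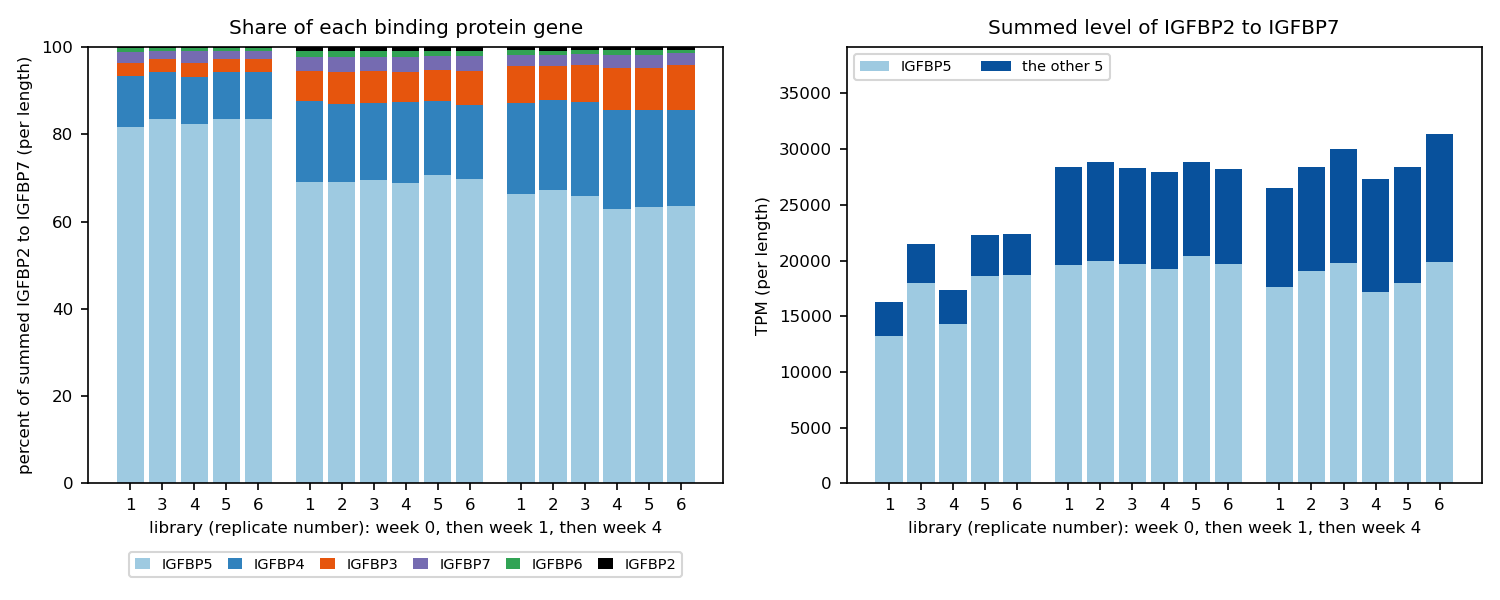
Share of each binding protein gene in the sum of IGFBP2 to IGFBP7 per unit length (left, percent) and that sum in TPM split into IGFBP5 and the other 5 genes (right), 1 bar per library. The IGFBP5 share was 81.7% to 83.5% in the week 0 libraries, 68.8% to 70.7% at week 1 and 62.9% to 67.2% at week 4.

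The ratio of inhibitor to protease RNA was described in the same unit. STC1 plus STC2 stood at 12.9, 9.79, 10.9, 10.0 and 11.3 times PAPPA in week 0 replicates 1, 3, 4, 5 and 6. The lowest, median and highest ratios were 6.27, 6.84 and 8.27 at week 1 and 4.49, 5.17 and 5.41 at week 4. The ratio was lower at each later time with no overlap between groups, with both stanniocalcin genes higher than at week 0 and PAPPA higher by the larger fold. STC1 alone stood at 2.76 times PAPPA at week 0 and 1.02 times at week 4. The ratio of STC2 to STC1 was 2.98, 3.27 and 3.90 at weeks 0, 1 and 4, and that of the substrate IGFBP4 to PAPPA was 45.9, 31.5 and 27.2. The amounts of protein were not measured.

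**Figure D4:**
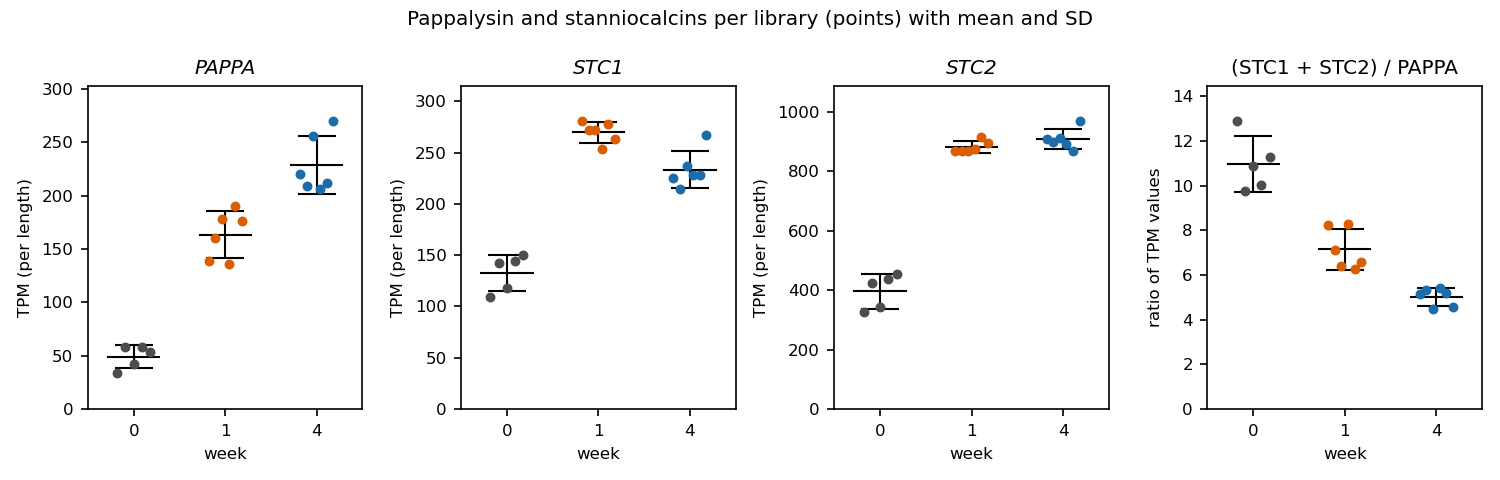
Levels of PAPPA, STC1 and STC2 in TPM and the ratio of STC1 plus STC2 to PAPPA, against the week of harvest. Points are libraries, with the group mean and 1 SD to each side. The ratio lay between 9.79 and 12.9 at week 0, between 6.27 and 8.27 at week 1 and between 4.49 and 5.41 at week 4.

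The time courses of the 10 genes were compared by the root mean square of the differences between log2 levels, each gene centred on its own mean, over the 17 libraries and 10117 genes. PAPPA and IGFBP3 were each other's nearest among the 10, at 0.162. RORA, a nuclear receptor gene, was the gene nearest to PAPPA of all, at 0.126, followed by IGFBP3, and 6 genes lay at least as near to IGFBP3 as PAPPA did. NDRG1 and ANGPTL4 were nearest to IGFBP3, at 0.116 and 0.129. IGFBP4 and STC2 were also each other's nearest among the 10, at 0.148, and so were IGFBP6 and IGFBP7, at 0.132. Of all genes compared, 48 lay at least as near to IGFBP4 as STC2 did, and 147 at least as near to STC2 as IGFBP4 did. For IGFBP6 and IGFBP7 the numbers were 47 and 17. The genes nearest to STC2 were PLOD1, a collagen lysyl hydroxylase, at 0.0499 and GRN, the progranulin gene, at 0.0552. GAA, a lysosomal glucosidase gene, was nearest to IGFBP4 at 0.0787, GALNT15 to STC1 at 0.0651, TUBA4A to IGFBP6 at 0.0908 and SLC16A4 to IGFBP7 at 0.0874. ARRDC4, an arrestin family gene, was nearest to IGFBP2 at 0.124.

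The sequences before the transcription starts of PAPPA and IGFBP3, and of IGFBP4 and STC2, are shown because each was the other's nearest in time course within its pair. Each is the 250 bases upstream of the start in RefSeq on GRCh38.p14, read 5′ to 3′ on the gene's own strand. PAPPA is at chr9:116153541-116153790 on the plus strand and IGFBP3 at chr7:45921273-45921522 on the minus strand. IGFBP4 is at chr17:40443200-40443449 on the plus strand and STC2 at chr5:173328415-173328664 on the minus strand. Capitals mark matches on either strand. The TATA box was searched as TATAAA. The CCAAT box was searched by that name's letters, CCAAT. The GC box was searched as GGGCGG.
PAPPA: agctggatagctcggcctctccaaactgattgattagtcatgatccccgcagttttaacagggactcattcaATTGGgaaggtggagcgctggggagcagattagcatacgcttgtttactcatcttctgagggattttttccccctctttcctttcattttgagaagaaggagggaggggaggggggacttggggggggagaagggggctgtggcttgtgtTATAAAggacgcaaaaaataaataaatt
IGFBP3: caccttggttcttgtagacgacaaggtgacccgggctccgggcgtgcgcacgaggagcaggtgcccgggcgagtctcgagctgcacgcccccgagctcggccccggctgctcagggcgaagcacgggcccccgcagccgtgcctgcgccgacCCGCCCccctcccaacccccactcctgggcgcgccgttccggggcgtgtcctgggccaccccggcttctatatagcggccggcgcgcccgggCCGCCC
IGFBP4: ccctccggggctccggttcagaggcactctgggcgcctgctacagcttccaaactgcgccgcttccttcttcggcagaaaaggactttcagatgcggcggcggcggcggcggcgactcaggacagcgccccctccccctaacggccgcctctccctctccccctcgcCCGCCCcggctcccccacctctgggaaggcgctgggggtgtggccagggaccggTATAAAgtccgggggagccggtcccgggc
STC2: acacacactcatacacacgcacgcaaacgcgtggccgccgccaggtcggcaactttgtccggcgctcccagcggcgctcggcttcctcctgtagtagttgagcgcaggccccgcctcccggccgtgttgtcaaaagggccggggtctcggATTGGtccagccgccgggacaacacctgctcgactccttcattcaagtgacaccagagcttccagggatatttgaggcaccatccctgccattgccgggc

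The paired genes did not share their exact matches. Only the letters given were searched, so a variant such as tatata, present in the IGFBP3 sequence, was not counted as a TATA box. PAPPA has a TATA box match beginning 28 bases before its start and a CCAAT box match on the opposite strand 178 bases before, whereas IGFBP3 has GC box matches on the opposite strand 98 and 6 bases before. IGFBP4 has a TATA box match beginning 29 bases and a GC box match on the opposite strand 83 bases before its start, and STC2 has a CCAAT box match on the opposite strand 100 bases before. The GC content was 48% for PAPPA and 76% for IGFBP3, and 71.6% for IGFBP4 and 63.6% for STC2. Of 35114 promoters of the same length, 10.7% hold the TATA box, 32% the CCAAT box and 42.6% the GC box. The AP-1 site, searched as TGACTCA, is in 4.2% of them and in none of the 10 entries used for 8 of the 10 genes. Chromosome 8, where STC1 lies, was left out when entries of the 10 genes were taken, and IGFBP7 had no entry. No overlap between these motifs occurs in the 4 sequences. IGFBP2 and IGFBP5 are neighbouring coding genes on chromosome 2 in RefSeq, and their RNA rose 6.83-fold and 1.27-fold at week 1.

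The other genes of the IGF system were taken from 7 lists of ligands and receptors, binding proteins, proteases, related secreted proteins, IGF2 mRNA-binding proteins, receptor signalling and receptor regulators. Of 63 listed genes 56 could be tested, and 27 were higher and 14 lower at week 1, and 32 higher and 11 lower at week 4. The shares over all tested genes were 32.9% higher and 34.0% lower at week 1, and 33.9% higher and 33.7% lower at week 4. The median log2 change of the 56 was 0.24 at week 1 and 0.27 at week 4, beside -0.02 and 0.00 over all tested genes.

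Both ligand genes were at low levels. IGF2 was at 18.9, 18.1 and 19.6 CPM at weeks 0, 1 and 4 and did not pass the test at either time (adjusted p = 0.44 and 0.50). IGF1 had 17 to 41 counts per library at week 0, 7 to 22 at week 1 and 40 to 117 at week 4. Its log2 change was -1.15 at week 1 (adjusted p = 0.0058) and 1.62 at week 4 (adjusted p = 1e-04). The week 1 call was absent in the files that hold a gene length (-0.26, adjusted p = 0.76). Those files are only week 0 replicates 5 and 6 and week 1 replicates 1 and 2. With so few libraries and counts, an absent change cannot be told from a missed one. IGF2R, which takes up IGF2 for breakdown, was 1.75-fold higher at week 1 (adjusted p = 2.2e-09) and 1.81-fold higher at week 4 (adjusted p = 9.2e-10). INSR, the insulin receptor gene, did not pass the test at week 1 (adjusted p = 0.22) and was 1.58-fold higher at week 4 (adjusted p = 1.4e-09).

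Of the 5 tested genes of other binding-protein proteases, 4 were higher and 1 lower at both times, against 32.9% and 34.0% of all tested genes at week 1 and 33.9% and 33.7% at week 4. PAPPA2, the paralogue of PAPPA that cuts IGFBP3 and IGFBP5, rose from 1.61 to 8.96 CPM at week 1 and was at 4.19 CPM at week 4 (adjusted p = 9.4e-13 and 1.7e-08). From week 1 to week 4 it fell by 1.10 on the log2 scale (adjusted p = 4.5e-07), where PAPPA rose. ADAM12 went from 18.6 to 45.4 and 89.4 CPM, a 2.45-fold and 4.81-fold rise (adjusted p = 2.8e-12 and 2.6e-16). The serine protease genes HTRA1 and HTRA3 moved in opposite directions. HTRA1 was at 131, 161 and 223 CPM at weeks 0, 1 and 4, and HTRA3 fell from 33.8 to 8.52 and 9.84 CPM (adjusted p = 2.6e-15 at week 1 and 2e-14 at week 4).

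Among the 8 tested genes of secreted proteins that share the binding-protein domain, 5 were higher and 3 lower at week 1, and 4 higher and 3 lower at week 4, where the shares of all tested genes were 32.9% and 34.0%, and 33.9% and 33.7%. The 3 lower of 8 lie near those shares. CCN4 rose from 7.52 to 27.4 and 51.3 CPM, or 3.64-fold and 6.82-fold (adjusted p = 7.7e-15 and 1.5e-17). CCN3 fell from 6.21 to 2.34 and 1.74 CPM (adjusted p = 1.2e-08 and 2.1e-10). ESM1, the endocan gene, rose from 3.04 to 5.75 and 10.5 CPM (adjusted p = 4e-08 and 6.3e-13). CCN2, a matrix protein induced by TGF-beta, fell from 981 to 760 and 776 CPM (adjusted p = 1.3e-06 and 4.3e-06).

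In the signalling list, 13 of 27 tested genes were higher and 5 lower at week 1, and 16 higher and 4 lower at week 4, where 32.9% and 34.0%, and 33.9% and 33.7%, of all tested genes were. IRS2, an adaptor of the insulin and IGF receptors, rose 2.52-fold at both times (adjusted p = 4.1e-12 and 4.8e-12), while the adaptor IRS1 was 1.19-fold lower at week 1 (adjusted p = 0.00026) and did not pass the test at week 4 (adjusted p = 0.14). The transcription factor gene FOXO4 rose 2.21-fold and 2.51-fold (adjusted p = 7.3e-11 and 6.5e-12). RHEB, the GTPase that activates mTORC1, fell from 90.6 to 62.9 and 53.7 CPM (adjusted p = 4.5e-06 and 2.4e-08). Of the 7 receptor regulators, 3 were higher and 2 lower at both times. The shares of all tested genes were 32.9% and 34.0% at week 1, and 33.9% and 33.7% at week 4. The 2 lower at week 1 were SOCS2 and SOCS3, inhibitors of cytokine and growth hormone signalling. SOCS2 went from 30.8 to 5.66 and 3.55 CPM, 5.44-fold and 8.68-fold lower (adjusted p = 1.9e-18 and 7.5e-20).

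**Figure D5:**
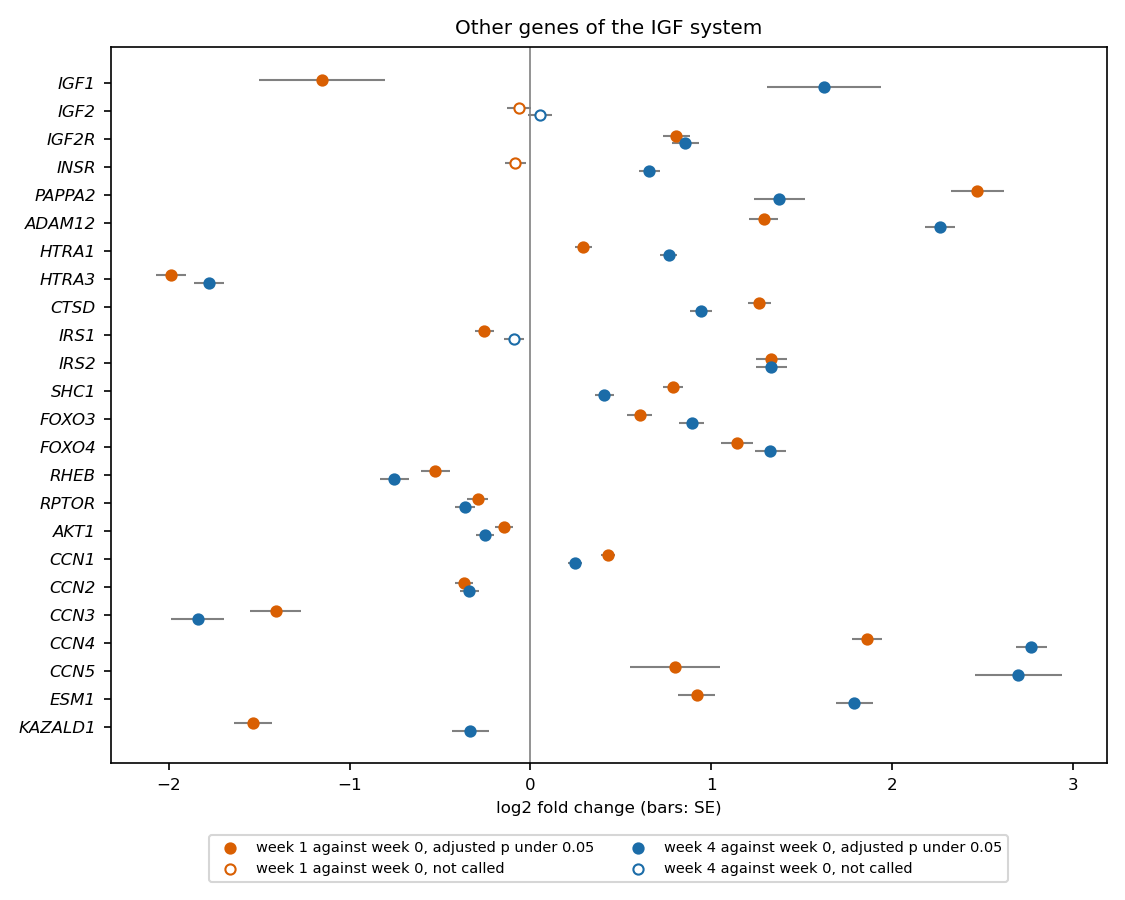
Log2 fold change against week 0 at week 1 and week 4 for listed genes of the IGF system outside the 10, with bars showing the standard error. Filled points passed the test and open ones did not. IGF1 lies on opposite sides of 0, at -1.15 and 1.62, and ADAM12, CCN4, CCN5 and ESM1 lie further right at week 4 than at week 1.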

How the data were processed

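Counts were made by the authors from RNA-seq reads of 17 IMR-90 libraries. HISAT2 2.0.5.2, featureCounts 1.4.6 and the build mm10 are named per the submitters' processing notes. The build is a mouse one while the gene symbols are human, so no gene coordinate was taken from the files. Neither RNA selection nor strand setting is given in the sources used here. The deposited files hold whole numbers per gene, taken as counts, and 4 also hold a column taken as gene length in bases. An entry with no gene name, 0.221% to 0.289% of counts, was left out. Reads of a gene and its antisense partner may not be told apart: IRAIN, beside IGF1R, had at most 38 counts in a library, IGFBP7-AS1 11, PAPPA-AS2 6 and PAPPA-AS1 0.

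Libraries were grouped by title. Counts were tested with edgeR 4.0.16 (R 4.3.3): filterByExpr, trimmed mean of M-values scaling, 1 mean per group over all 17 libraries, quasi-likelihood test, 3 comparisons, Benjamini-Hochberg adjustment over all 16891 tested genes, threshold 0.05. SE is the size of the log2 fold change divided by the square root of F. The biological coefficient of variation was 11.7%. TPM was computed from counts and the deposited gene lengths. In simulated counts for week 1 against week 0 (16642 genes), 46% of genes changed 1.25-fold were recovered, 64% at 1.5-fold, 70% at 2-fold and 94% at 4-fold, and 5.52% of calls were false. Only 50 genes, drawn at random whatever their level, were changed at each fold. In the data 32.9% of tested genes were called higher and 34.0% lower, so these rates need not hold there. No replicate pair agreed within sampling noise (chi-square per gene 7.64 to 228). The 10 genes and the lists were chosen with earlier results of these data known. Named genes were the 10, the IGF ligands and receptors, up to 3 rising and 3 falling genes per list and comparison with the smallest adjusted p, the antisense partners, and the 2 genes (mean of at least 5 CPM, log2 of CPM + 0.5) nearest to each of the 10 that changed over 2-fold. Alternatives were DESeq2 1.42.0, limma-voom 3.58.1, other scalings and filters, a fit of the compared groups alone, a term or split by kind of file (the files with a gene length alone were added after seeing the data), a replicate block, and leaving out each library. Sequences are from RefSeq (GRCh38.p14), where all 10 symbols matched.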

Additional observations from a re-analysis of the deposited data

Results flagged for a closer look

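In groups of 5 or 6 libraries, 144 sets of values of 48 genes were searched for a single library far from the rest, and chance gives about 1 in 20 such sets. IGF1 was at 0.241 CPM in week 1 replicate 1, where the next library was at 0.131 CPM. CCN2 was at 798 CPM in week 1 replicate 6, and the next was at 760 CPM. NEDD4 was at 90.6 CPM in week 1 replicate 4, and the next was at 102.9 CPM. None of the 10 main genes had such a library. IGF1R and IGF1 lay on opposite sides of week 0 at the 2 times. The week 1 call of IGF1 was absent in the files with a gene length (-0.26, adjusted p = 0.76), which are few and include week 1 replicate 1. The tested difference between week 4 and week 1 was 0.57 on the log2 scale for IGF1R and 2.78 for IGF1 (edgeR, adjusted p = 7.8e-08 and 5.1e-07).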

How the results depend on the processing

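Each of the 10 genes had 29 alternatives for week 1 against week 0 and 28 for each other comparison. Of these, 17 left out 1 library, and all reused the same data. Counted over genes, comparisons and alternatives, the call was the same in 847 results and changed in 3, and 0 directions reversed. Those 3 gained a call and all concern IGFBP5 between week 4 and week 1, including -0.12 (adjusted p = 0.026) without week 0 replicate 1. For the other named genes, 36 calls were lost and 50 gained among the alternatives, with 3135 unchanged and 0 reversed. With no scaling, the median difference in mean log2 level over all tested genes was -0.12 at week 1 and -0.14 at week 4. The medians of edgeR's log2 fold changes with scaling, a different measure, were -0.02 and 0.00. Small changes depend on this scaling. IGFBP5, with a log2 fold change of 0.22 at week 4, took 2.29% of all counts at week 0 and 2.34% at week 4. Leaving out 1 library at a time gave 10981 to 11372 genes called at week 1, 11015 to 11356 at week 4 and 6218 to 7308 between week 4 and week 1. Listed pathway genes called lower from week 1 to week 4 numbered 18 in a fit of those 2 groups alone, against 11. By library total with no gene length, the IGFBP5 share was 92.4%, 84.1% and 80.9% at weeks 0, 1 and 4, and the ratio of stanniocalcins to PAPPA was 4.58, 2.99 and 2.11, which leaves the order of the groups as it was.

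Replicate numbers gave little sign of pairing between libraries. Correlations of deviations between libraries of the same number ran from -0.0825 to 0.144, with 1, 1 and 0 pairs over 0.1 in the 3 comparisons. In 0, 2 and 0 pairs each library was the other's best match. The replicate block gave 11096, 11180 and 6669 genes called against 11305, 11414 and 6835, and changed no call of the 10 genes (IGFBP5 between week 4 and week 1: adjusted p = 0.06). IGF1 had few counts (7 to 117 per library), which limits its precision.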

Other observations

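IGFBP4 lies beside TOP2A, a target of etoposide, on chromosome 17 among RefSeq coding genes. TOP2A fell from 515 CPM at week 0 to 46.4 CPM at week 1 and 69.2 CPM at week 4, while IGFBP4 rose. IGF1R lies beside ARRDC4 on chromosome 15, and ARRDC4, the gene nearest to IGFBP2 in time course, went from 13.4 to 90.1 and 67.6 CPM while IGF1R moved by less than 1.5-fold in every comparison. KAZALD1, a secreted protein gene with a binding-protein domain, fell from 12.7 to 4.38 CPM at week 1 and was at 10.1 CPM at week 4, a log2 change of 1.20 between the 2 later times (edgeR, adjusted p = 4.4e-09). The IGFBP5 share of binding protein RNA at week 4 was 65.9% to 67.2% in replicates 1, 2 and 3 and 62.9% to 63.5% in replicates 4, 5 and 6, a split the labels do not explain.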
